A study of Mus musculus with 6 samples.

Results

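The 46 genes described here encode clotting factors, fibrinogen chains, anticoagulants, fibrinolytic enzymes, and complement proteins with their inhibitors. They were chosen by symbol as plasma proteins made chiefly by hepatocytes, and all 46 are among the 17441 genes of the deposited table. All 46 also carry the complement and coagulation pathway term that the authors' table assigns to 92 genes. Each of the 46 passed the filter on low counts.

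Clotting is a chain of serine proteases in which tissue factor (F3) with factor VII, or the contact proteases, lead to thrombin (F2), which turns fibrinogen into fibrin. Antithrombin (Serpinc1), protein C and tissue factor pathway inhibitor (Tfpi) hold the chain in check, and plasmin dissolves the fibrin. Complement is started by antibody (classical), by sugars on microbes (lectin) or by C3 turnover (alternative), and ends in a membrane pore built from C5 to C9. The liver supplies most of these proteins to plasma, while von Willebrand factor (Vwf), factor VIII (F8), thrombomodulin (Thbd), tissue plasminogen activator (Plat) and Tfpi are known chiefly from endothelium.

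RNA of 6 mouse livers was sequenced, 3 labelled wild type (WT) and 3 labelled iKO, a tamoxifen-inducible knockout of the kinase Nek7 in the whole body. Every mouse, WT included, was sampled on day 10 after tamoxifen, and the title places the series in acetaminophen liver injury and cell cycle control, but no label records acetaminophen. The labels give neither the Cre driver, the strain, the age nor the sex, and number the livers within a group without saying more of the animals, so p-values measure the spread between these samples. The samples are called WT 1 to WT 3 and iKO 1 to iKO 3.

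Library totals ran from 18139500 to 19912000 expected counts, the estimated read counts of each gene, and any 2 libraries differed by more than sampling noise. Nek7 was read at 55.5, 40.5 and 36.3 CPM (normalised read counts scaled to a common library size) in WT and at 50.2, 32.8 and 31.0 in iKO. These values overlapped, with 44.1 ± 10.1 CPM against 38.0 ± 10.6 (SD, n = 3 each) and an adjusted p of 0.541 in edgeR's quasi-likelihood test, so the counts of the targeted gene did not separate the labels. Reads outside a deleted part would still be counted, and the sources used here do not name the deleted part. The Y-linked genes Ddx3y and Kdm5d gave 0 counts in WT 2 and WT 3 and 573 to 1113 together in the other 4 libraries. WT 1 is therefore the single WT library that shares this feature with the iKO group, and the labels do not name sex. Of all 13160 tested genes, 7.31% passed an adjusted p of 0.05 as higher in the libraries labelled iKO and 8.07% as lower; such genes are termed called. In bulk liver, fewer cells of a type and less RNA per cell cannot be told apart.

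Of the 46 genes, 0 were called higher and 3, or 6.52%, were called lower in the libraries labelled iKO: Masp1, F11 and Tfpi. The other 43 did not pass edgeR's quasi-likelihood test. DESeq2 and limma-voom also called 0 higher and each called 4 lower. Over all genes DESeq2 called 1296 higher and 1186 lower of 13141, and limma-voom 907 higher and 1007 lower of 13160. At an unadjusted p below 0.05 edgeR gave 1 higher and 9 lower. The share of all tested genes at that cut was not counted. No direction is therefore read from these counts or from those given below at that cut. The edgeR calls stand beside 7.31% called higher and 8.07% called lower among all tested genes, and whether the shares differ was not tested. The median log2 fold change was 0.10 beside -0.02 for all tested genes, with 26 of the 46 above 0, where 48.3% of all tested genes were. On the authors' FPKM scale (with 1 added) 18 of the 46 were above 0 in limma, beside 35.5% of all tested genes, whose median was then -0.12; that change of scale moved genes in general.

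**Figure D1:**
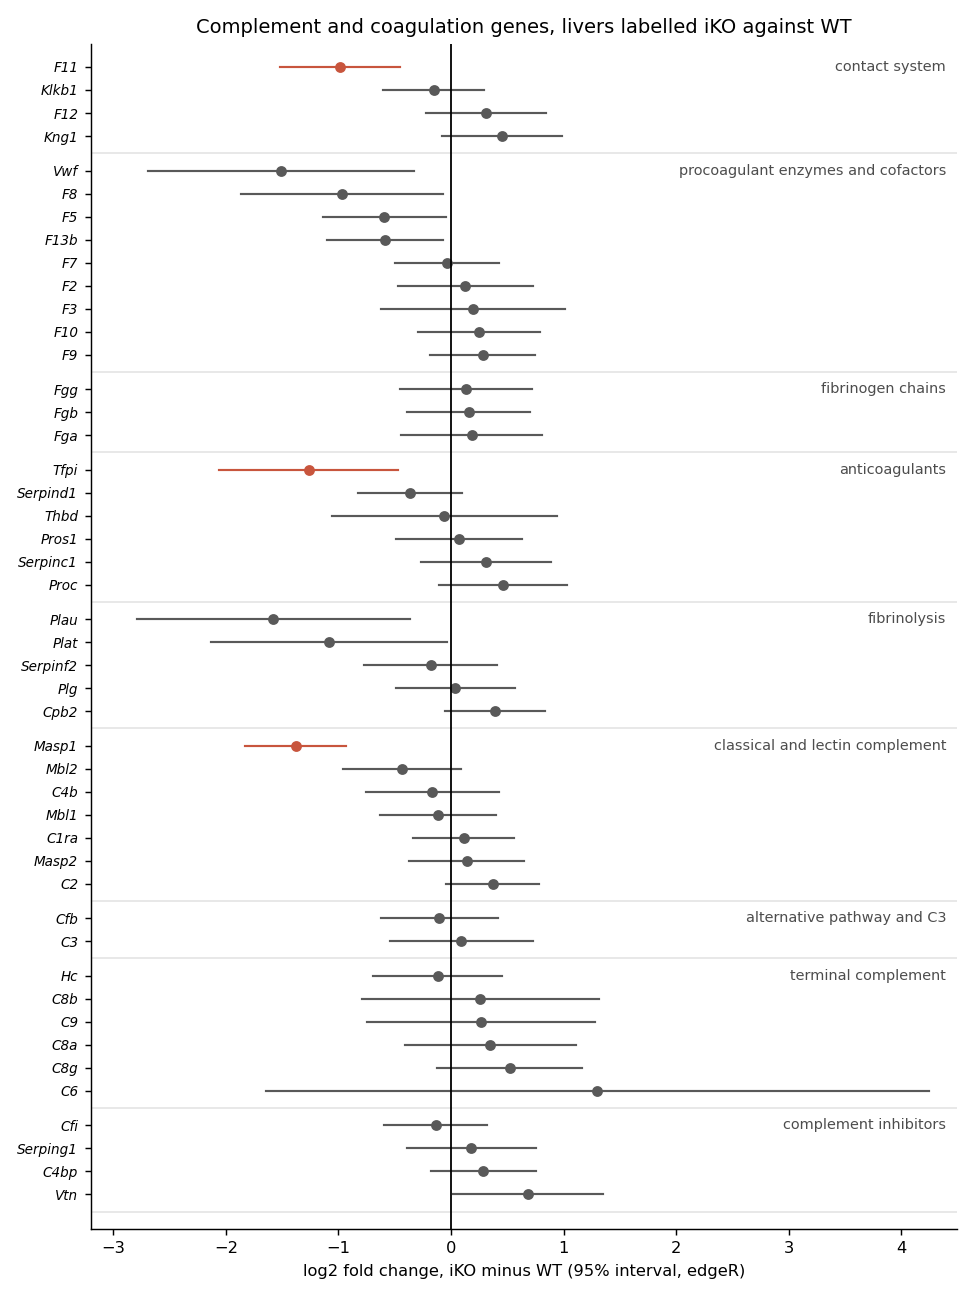
Log2 fold change (iKO minus WT, x axis) of each of the 46 genes with its 95% interval from edgeR's quasi-likelihood fit, grouped by role on the y axis. Masp1, F11 and Tfpi, drawn in red, were called lower, and the C6 interval runs from -1.64 to 4.24.

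Precision differed between genes. For 28 of the 43 genes not called, the 95% interval of the difference stayed within 2-fold in either direction, and for the other 15 it reached 2-fold or more. Groups did not overlap for 4 genes higher in iKO (Kng1, C2, Cpb2 and Vtn; 8.70%) and 7 lower (F5, F11, F13b, Serpind1, Masp1, Tfpi and Vwf; 15.2%), beside 19.8% and 19.2% of all tested genes. iKO 1 was the highest library for 20 of the 46 genes (43.5%), beside 25.5% of all tested genes. That library also had the lowest normalisation factor (0.780, against 1.18 in WT 2) and the lowest albumin share, 5.18% of counts against up to 10.7%.

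The genes spanned a wide range of levels. Compared per length as TPM (scaled by transcript length; mean of 6 libraries), C3, the protein on which the complement pathways meet, stood at 5382 and the fibrinogen chains Fgb, Fgg and Fga at 5054, 4189 and 3792. Vtn, Kng1 and Serpinc1 followed at 3422, 2959 and 2459 TPM, and 10 genes had means over 1000. Another 7 had means under 5 TPM: F3 (3.02), Tfpi (2.77), Thbd (1.56), F8 (1.27), Vwf (1.17), Plat (1.01) and Plau (0.782). These 7 hold all 5 named above as known chiefly from endothelium. Levels in whole liver do not show which cells make a transcript. Whether these 7 are hepatocyte-made was not tested, and the genes are described by their roles. Together the 46 genes took 5.07% to 6.15% of the counts of a library.

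Upstream sequence is shown for F11, a gene whose level fell, and for 2 fibrinogen genes, whose transcripts were among the most abundant and were not called. RefSeq windows (GRCm38.p6; 250 bases before to 50 after the start) were found for 33 of the 46 genes, 35 windows in all. The C/EBP letters TTGCNNAA were found in 28.6% of these windows beside 10.8% of all 32851, the HNF1 letters GTTAAT in 28.6% beside 7.10%, and the STAT letters TTCNNNGAA in 22.9% beside 8.30%. The clock E-box CACGTG was in 2.86% beside 7.15%, and the D-box TTATGNAA in 8.57% beside 3.38%. Both strands were searched, and some D-box sequences also fit the C/EBP letters on the other strand. Median GC was 48.7% in the 35 windows and 52.7% in all. A match is a run of letters, not a shown binding site. F11 lies at chr8:45262032-45262281 on the minus strand, Fga at chr3:83025903-83026152 on the plus strand, and Fgb at chr3:83049864-83050113 on the minus strand. They are written 5′ to 3′ up to the base before the start, with capitals for matches: C/EBP at 17 bases before the start in F11; HNF1 at 43, C/EBP at 135 and STAT at 234 in Fga; and HNF1 at 29, C/EBP at 80 and STAT at 162 in Fgb, counted to the first base of the match.
F11 upstream 250 bases: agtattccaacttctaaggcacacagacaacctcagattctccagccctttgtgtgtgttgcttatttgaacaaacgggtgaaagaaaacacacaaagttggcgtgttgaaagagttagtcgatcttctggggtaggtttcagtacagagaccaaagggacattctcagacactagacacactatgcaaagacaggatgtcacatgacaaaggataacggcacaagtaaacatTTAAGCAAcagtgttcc
Fga upstream 250 bases: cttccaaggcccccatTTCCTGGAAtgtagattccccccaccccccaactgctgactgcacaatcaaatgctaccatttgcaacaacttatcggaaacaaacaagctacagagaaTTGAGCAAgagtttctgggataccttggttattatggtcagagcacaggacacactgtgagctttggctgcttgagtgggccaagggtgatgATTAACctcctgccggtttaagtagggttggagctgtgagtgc
Fgb upstream 250 bases: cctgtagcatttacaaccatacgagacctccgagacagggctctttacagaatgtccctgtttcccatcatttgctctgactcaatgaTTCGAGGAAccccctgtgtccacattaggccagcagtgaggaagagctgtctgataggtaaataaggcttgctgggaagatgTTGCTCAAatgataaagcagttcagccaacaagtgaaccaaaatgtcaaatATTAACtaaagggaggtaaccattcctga

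The contact system starts clotting on negatively charged surfaces, and 1 of its 4 genes was called. F11, whose product carries the signal from factor XII to factor IX, was read at 103, 62.9 and 54.3 CPM in the WT livers and at 34.6, 36.0 and 40.9 in iKO. All 3 iKO libraries lay below all 3 WT libraries, and WT 1 stood above WT 2 and WT 3. The mean fell from 73.5 ± 26.2 to 37.2 ± 3.34 CPM (SD, n = 3 each), to 50.6% of WT with a 95% interval of 34.9% to 73.2%. On the log2 scale F11 differed by -0.98 with an SE of 0.24 (adjusted p = 0.0260, edgeR). Leaving out WT 2, iKO 1, iKO 2 or iKO 3 raised the adjusted p to 0.0633, 0.0688, 0.0749 and 0.0625, past the threshold. Without WT 1 the call held, but the log2 fold change shrank to -0.655 (adjusted p = 0.0431). WT 1 stood at 1.76 times the mean of WT 2 and WT 3. A fit that accounts for Y-linked reads in effect compares WT 1 alone with the iKO libraries. For F11 such a fit therefore rests on that high library and cannot show that the call is independent of it. When the model held a term for Y-linked reads, F11 was still called (log2 fold change -1.48, adjusted p = 0.0158); under that term 0.805% of all tested genes were called lower and 0.593% higher. Klkb1, plasma prekallikrein, is the neighbour of F11 in the RefSeq annotation and shares its ancestry; it gave 238 ± 35.6 against 214 ± 29.8 CPM (log2 fold change -0.15, adjusted p = 0.623). F12 stood at 508 ± 90.1 against 629.5 ± 139 CPM. Kng1, the kininogen from which bradykinin is cut, stood at 2528 ± 479 against 3457 ± 244 CPM without overlap (adjusted p = 0.217), and its reads are shared with the near-identical Kng2.

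Of the 9 procoagulant enzymes and cofactors, 0 were called by edgeR, while DESeq2 and limma-voom each called 1 lower. At an unadjusted p below 0.05 edgeR gave 0 higher and 4 lower (F5, F8, F13b and Vwf). The all-gene share at that cut was not counted. The vitamin K-dependent proteases gave 1769 ± 308 against 1933 ± 525 CPM for F2 (thrombin), 98.3 ± 16.3 against 95.9 ± 20.7 for F7, 151 ± 26.0 against 184 ± 33.0 for F9, and 468 ± 88.9 against 557 ± 130.2 for F10. Their intervals all stayed within 2-fold. F5, the cofactor of factor Xa, was read at 519, 587 and 569 CPM in the WT livers and at 273, 488 and 349.6 in iKO, without overlap, at an adjusted p of 0.123. F13b, the carrier subunit of the fibrin cross-linking factor XIII, was read at 170.4, 148 and 142 against 84.5, 139 and 82.9 CPM, also without overlap (adjusted p = 0.107). With a library left out, the adjusted p of F13b in edgeR ran from 0.0366 (without iKO 2) to 0.284 (without iKO 3). F3, tissue factor, stood at 2.97 ± 0.604 against 3.39 ± 1.44 CPM.

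The 3 fibrinogen chains, coded side by side, were not called (0 at an unadjusted p below 0.05 by edgeR, and 0 by DESeq2 or limma-voom). Fga was read at 6507, 6288 and 6356 CPM in the WT livers and at 9512, 7405 and 4838 in iKO, Fgb at 4953, 4822 and 4568 against 6226, 5634 and 4128, and Fgg at 4462, 3874 and 3788 against 5432, 4698 and 3206. For each chain the iKO libraries spread on both sides of the WT libraries, with iKO 1 highest and iKO 3 lowest. Log2 fold changes ran from 0.14 to 0.18 with adjusted p from 0.681 to 0.749. As TPM the iKO mean was the lower of the 2 for all 3 chains (for Fga 4149 ± 509 against 3435 ± 726). TPM carry no TMM factor, and on the FPKM scale the median of all tested genes also moved, to -0.12, so no direction is given for the chains.

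Among the 6 anticoagulants, Tfpi was called. Tfpi, the inhibitor of the tissue factor and factor VIIa complex, was read at 3.50, 5.28 and 4.45 CPM in the WT livers and at 1.73, 2.68 and 1.09 in iKO, without overlap. The mean fell from 4.41 ± 0.890 to 1.83 ± 0.800 CPM (SD, n = 3 each), or by 1.27 on the log2 scale with an SE of 0.36 (adjusted p = 0.0426, edgeR). These values rested on 21 to 119 expected counts a library. The call was lost without WT 2 (adjusted p = 0.176), WT 3 (0.0903), iKO 1 (0.0814) or iKO 3 (0.106), and also in the fit that accounts for Y-linked reads (0.361). Serpinc1, antithrombin, stood at 2165 ± 324 against 2682 ± 649 CPM and Proc, protein C, at 431 ± 46.9 against 595 ± 185 CPM. Pros1, the cofactor of protein C, stood at 50.1 ± 7.23 against 52.6 ± 18.0 CPM. Serpind1, heparin cofactor II, was lower without overlap at 619.8 ± 30.1 against 482 ± 75.9 CPM (adjusted p = 0.248). Thbd, the thrombin receptor that activates protein C, gave 3.46 ± 0.975 against 3.35 ± 1.79 CPM.

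In fibrinolysis 0 of 5 genes were called, and at an unadjusted p below 0.05 edgeR gave 0 higher and 2 lower (Plat and Plau), with 0 called by DESeq2 and 0 by limma-voom. Plg, the precursor of plasmin, stood at 2723 ± 283 against 2799.6 ± 462 CPM with an interval of -0.49 to 0.57 on the log2 scale. Serpinf2, the plasmin inhibitor, stood at 1084 ± 151 against 956 ± 281 CPM, and Cpb2, which trims fibrin and slows its dissolution, at 352 ± 48.2 against 462 ± 35.4 CPM without overlap (adjusted p = 0.201). Plau, urokinase, was the gene nearest the threshold among those that missed it: 0.903, 1.73 and 1.74 CPM in WT against 0.266, 0.911 and 0.259 in iKO (log2 fold change -1.58, adjusted p = 0.0742). With a library left out, its adjusted p in edgeR ran from 0.0333 (without iKO 2) to 0.236 (without WT 2). Plau was called in 1 of 17 alternative settings. The iKO 2 value lay just above that of WT 1, and the values rest on 4 to 39 expected counts. Plat stood at 1.88 ± 0.897 against 0.881 ± 0.310 CPM.

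**Figure D2:**
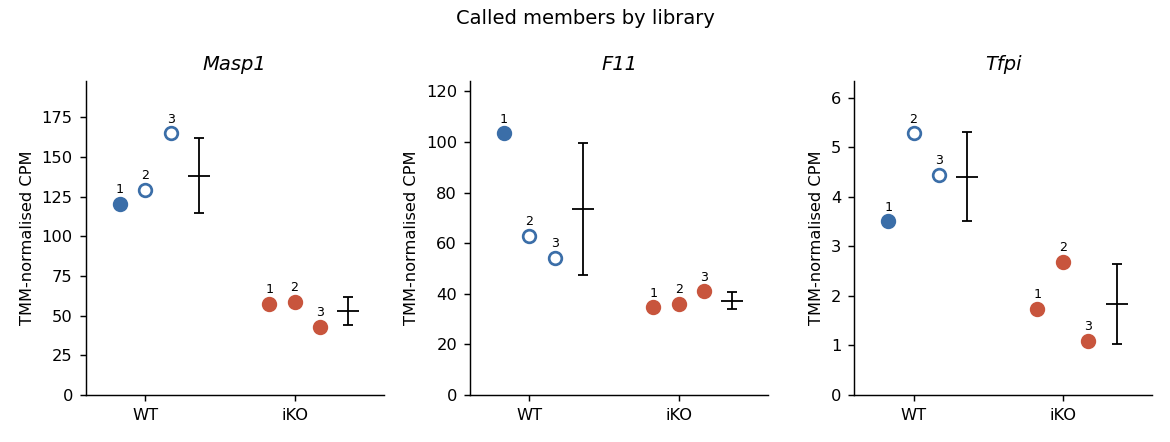
CPM (y axis, from 0) of Masp1, F11 and Tfpi in each of the 3 WT and 3 iKO libraries, numbered by replicate; filled circles hold Y-linked counts, open circles none, and black bars are mean ± SD. In each panel all 3 iKO libraries lie below all 3 WT libraries.

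Masp1 had the smallest adjusted p of the 46 genes. Its products are proteases and a truncated protein of the lectin pathway, which bind mannose-binding lectin and collectins. It was read at 120.4, 129 and 165 CPM in the WT livers and at 57.3, 58.9 and 43.1 in iKO, and the lowest WT library was above the highest iKO library. The mean fell from 138 ± 23.6 to 53.1 ± 8.70 CPM (SD, n = 3 each), to 38.4% of WT with a 95% interval of 28.2% to 52.4%. On the log2 scale Masp1 differed by -1.38 with an SE of 0.20 (adjusted p = 0.00350, edgeR), and the call held with any 1 of the 6 libraries left out, at adjusted p up to 0.0155. In the fit that accounts for Y-linked reads its log2 fold change was -1.18, at an adjusted p of 0.0778. Of 10 stellate cell and fibroblast markers 6 were also called lower. Their summed level was 330, 530 and 532 CPM in WT and 159, 177 and 212 in iKO. The median log2 fold change of these markers was -1.39, and -0.725 in the fit that accounts for Y-linked reads. The part of those cells in the Masp1 result was not tested.

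The other classical and lectin genes were not called. Masp2, the partner protease of Masp1, stood at 228 ± 30.8 against 251 ± 66.3 CPM. Mbl1 and Mbl2, the mannose-binding lectins, stood at 239 ± 52.9 against 221 ± 46.6 and at 292 ± 78.7 against 215 ± 29.4 CPM. C1ra, which starts the classical protease chain, stood at 408 ± 52.7 against 441 ± 47.1 CPM, C2 at 109.8 ± 14.1 against 142 ± 19.3, and C4b at 1988 ± 334 against 1772 ± 456; C4b shares reads with the near-identical C4a. C2 was higher in iKO without overlap, yet its adjusted p was 0.193. In the alternative pathway C3 was read at 8558, 10009.9 and 15139 CPM in WT and 10143, 13928 and 11864 in iKO, with WT 3 the highest library. Cfb, the protease component beside C2 in the genome, stood at 1487 ± 306 against 1384 ± 52.9 CPM.

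Terminal complement forms the membrane pore, and 0 of its 6 genes were called (0 higher and 0 lower at an unadjusted p below 0.05, and 0 by DESeq2 or limma-voom). WT 1 stood apart from the other WT libraries for 4 of them. C6 was read at 367, 24.2 and 39.3 CPM in the WT livers and at 415, 369 and 277 in iKO. WT 1 was 11.6 times the mean of WT 2 and WT 3 and lay within the iKO range. C9, the subunit that lines the pore, was read at 714, 217 and 243 against 532, 494 and 388 CPM, so WT 1 was 3.11 times the mean of WT 2 and WT 3. C8a gave 872, 400.1 and 349 against 608, 764 and 696 CPM, and C8b gave 524, 147 and 237 against 481, 352 and 256. Here too WT 1 was 2.33 and 2.73 times the mean of WT 2 and WT 3. The 2 low libraries are those with 0 Ddx3y and Kdm5d counts.

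**Figure D3:**
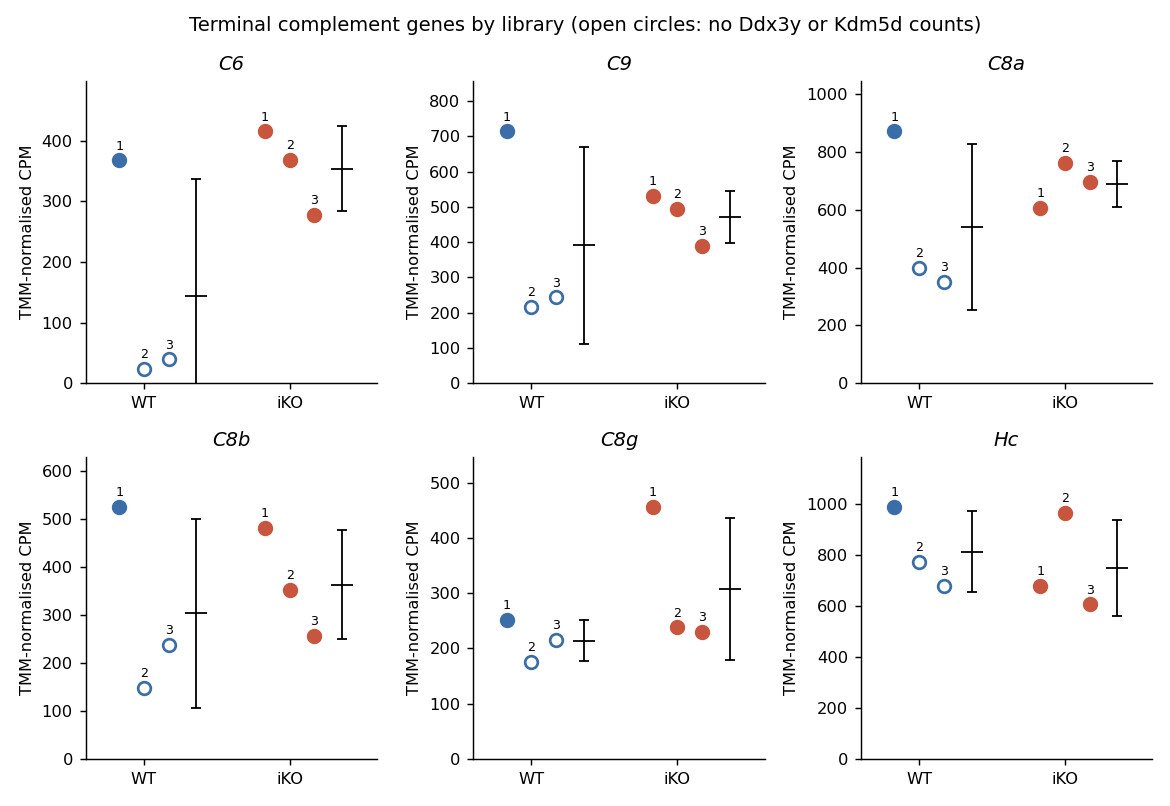
CPM (y axis, from 0) of the terminal complement genes in the 3 WT and 3 iKO libraries, numbered by replicate; filled circles hold Y-linked counts, open circles none, and black bars are mean ± SD (the lower end for C6 in WT is clipped at 0). WT 1 lies with the iKO libraries for C6, while WT 2 and WT 3 read 24.2 and 39.3 CPM.

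The fitted difference for these genes turned on that library. C6 differed by 1.30 on the log2 scale with an SE of 1.14 (adjusted p = 0.483, edgeR), by 3.48 (adjusted p = 0.00101) without WT 1, and by -0.055 in the fit that accounts for Y-linked reads. For C9 it was 0.27, then 1.04 (adjusted p = 0.0328) without WT 1, and -0.60 in the fit with that term. Without WT 1 these were the 2 of the 46 genes called higher. C6 was the only member for which WT 1 and every iKO library stood at least 2-fold above WT 2 and WT 3 (2.17% of the 46 genes), a pattern shown by 62 tested genes, or 0.471%. For C8g and Hc, WT 1 stood at 1.28 and 1.36 times the mean of WT 2 and WT 3. C8g gave 251, 176 and 215 against 456, 238 and 229 CPM. Hc, which encodes C5, gave 989, 775 and 679 against 679, 965 and 607.

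Of the 4 complement inhibitors, 0 were called, while at an unadjusted p below 0.05 edgeR gave 1 higher and 0 lower and DESeq2 and limma-voom called 0. Vtn, vitronectin, which blocks the terminal pore, was read at 2833, 2269 and 3319 CPM in the WT livers and at 6326, 3629 and 3557 in iKO. The groups did not overlap and iKO 1 stood far above the rest, with a log2 fold change of 0.68 (adjusted p = 0.143, edgeR), and of 0.36 without iKO 1. Serping1, the C1 inhibitor, stood at 1143 ± 229.7 against 1297 ± 289.6 CPM, Cfi, which cleaves C3b, at 667 ± 61.0 against 607 ± 60.4, and C4bp, its cofactor, at 446 ± 69.3 against 545 ± 58.1.

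The genes known from vessel walls were read at low levels. Vwf, which tethers platelets and carries factor VIII, was read at 6.90, 10.0 and 8.12 CPM in the WT livers and at 2.53, 5.31 and 0.934 in iKO, without overlap. On the log2 scale it differed by -1.51 with an SE of 0.51 (adjusted p = 0.0811, edgeR). Vwf was called in 5 of 17 alternative settings, among them DESeq2 (0.0127), limma-voom (0.0405) and edgeR without iKO 2 (0.0210). In edgeR its adjusted p was 0.247 without WT 2 and 0.137 with an offset for length. With a term for Y-linked reads its log2 fold change was -1.24. F8 was read at 8.76, 11.1 and 5.61 against 3.60, 6.97 and 2.44 CPM, with iKO 2 above WT 3 (adjusted p = 0.125). With a library left out, the adjusted p of F8 in edgeR ran from 0.0407 (without iKO 2) to 0.380 (without WT 2). F5, F8 and Vwf have long transcripts, at the 94.6th, 97.7th and 97.0th percentile of tested genes, and across genes the log2 fold change fell with length (Spearman's rho -0.353, genes not being independent replicates). With an offset for length their log2 fold changes were -0.37, -0.72 and -1.28.

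Markers of endothelial cells stood lower in iKO as well. The summed level of 10 sinusoidal markers was 233, 362 and 345 CPM in WT and 218, 196 and 84.0 in iKO, with 2 of 10 called lower and a median log2 fold change of -0.86. For 10 general and large vessel markers it was 149, 228 and 220 against 119, 116 and 48.2 CPM. Of these, 3 of 10 were called lower (Cdh5, Tek and Rspo3), with a median of -0.92. In both sums WT 1 lay nearer to iKO 1 than to WT 2 or WT 3. Once Y-linked reads were accounted for, the sinusoidal median was -0.41 and the general one -0.62. That fit rests on WT 1 as the single WT library holding such reads. iKO 3 had the lowest value of Vwf, F8, Thbd and Tfpi and of both sums, while Plat was lowest in iKO 1 (0.533 CPM, against 0.986 in iKO 3). Platelet markers summed to 4.30 to 8.53 CPM, with Treml1 at 0 in WT 1, and 0 of the 4 tested were called (0 at an unadjusted p below 0.05 and 0 by DESeq2 or limma-voom). Of 9 hepatocyte markers 0 were called, with 2 higher and 0 lower at an unadjusted p below 0.05, and 2 higher by DESeq2 and 0 by limma-voom. Lower calls were not particular to endothelial markers. Of 8 neutrophil markers 5 were called lower, with a median log2 fold change of -2.82, and -1.62 with the Y-linked term. The 1 tested mesothelial marker was called lower. Of the tested cholangiocyte (6), erythroid (2) and lymphocyte (7) markers, 0 were called. The part of any of these cells in the Vwf, F8 and Tfpi values was not tested.

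**Figure D4:**
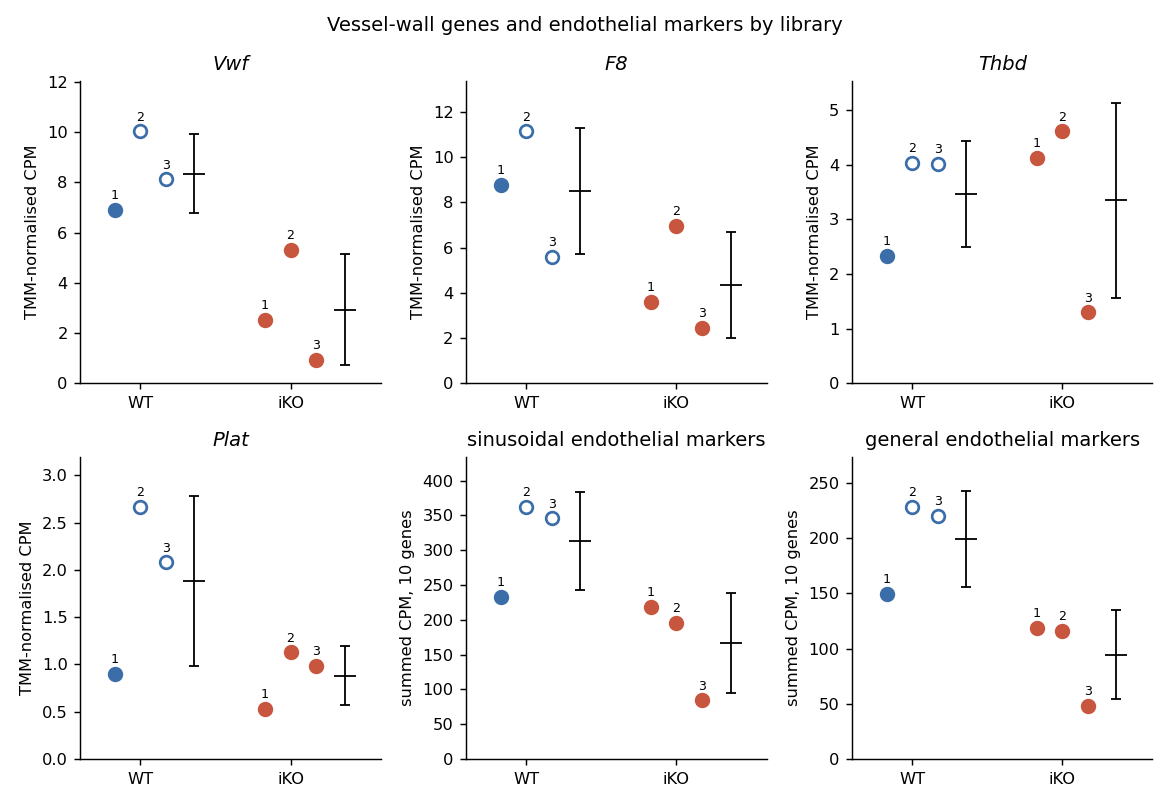
CPM (y axis, from 0) of the vessel-wall genes and of the summed endothelial markers in each of the 3 WT and 3 iKO libraries, numbered by replicate; filled circles hold Y-linked counts, open circles none, and black bars are mean ± SD. iKO 3 is the lowest library for Vwf (0.934 CPM) and for the sinusoidal marker sum (84.0 CPM).

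Of 29 tested complement genes outside the 46, 0 were called higher and 3 lower by edgeR, and at an unadjusted p below 0.05 there were 1 higher and 8 lower. DESeq2 called 1 higher and 4 lower, and limma-voom 0 higher and 4 lower. Their median log2 fold change was -0.44. Colec10 and Colec11 encode collectins of the lectin pathway that pair with Masp proteases. Colec10 fell from 26.9 ± 3.49 to 8.01 ± 2.43 CPM (log2 fold change -1.75, adjusted p = 0.00267, edgeR). Colec11 fell from 33.8 ± 8.44 to 14.0 ± 5.64 CPM (-1.28, adjusted p = 0.0228). Vsig4, a macrophage receptor for C3 fragments that is also among the Kupffer markers, fell from 34.8 ± 10.4 to 15.0 ± 4.57 CPM (-1.21, adjusted p = 0.0212). Kupffer markers summed to 330, 541 and 610 CPM in WT and to 236, 278 and 215 in iKO, with 6 of 9 called lower. Their median log2 fold change was -1.15, and -0.481 with the Y-linked term. The part of Kupffer cells in the Vsig4 value was not tested. Leaving out a library ended the call of Colec11 for WT 2 (0.0802), WT 3 (0.0649), iKO 2 (0.0741) and iKO 3 (0.0633), and of Vsig4 for WT 2 (0.0831), WT 3 (0.0659), iKO 1 (0.0667) and iKO 3 (0.0670), while Colec10 kept its call. With the Y-linked term all 3 calls were lost, at adjusted p of 0.0516 for Colec10, 0.269 for Colec11 and 0.329 for Vsig4.

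Of 28 tested clotting and fibrinolysis genes outside the 46, 2 were called higher and 4 lower by edgeR, with a median log2 fold change of 0.08. At an unadjusted p below 0.05 there were 4 higher and 4 lower. DESeq2 called 4 higher and 4 lower, and limma-voom 1 higher and 3 lower. Serpine2, a thrombin inhibitor, rose from 4.02 ± 0.985 to 10.7 ± 6.08 CPM (log2 fold change 1.41, adjusted p = 0.0419, edgeR). Serpina10, which inhibits factor Xa with protein Z, rose from 199 ± 26.5 to 368 ± 78.5 CPM (0.88, adjusted p = 0.0284). Adamts13, the protease that trims Vwf multimers and is known from stellate cells, fell from 7.95 ± 1.51 to 2.79 ± 0.818 CPM (-1.52, adjusted p = 0.00927). Tfpi2, Stab2 and Fgl2 fell by 0.78, 0.77 and 1.01 on the log2 scale (adjusted p 0.0421, 0.0285 and 0.0490). Stab2 is also among the sinusoidal endothelial markers, so its fall is not a separate observation. All 6 calls were lost with the Y-linked term, which in effect compares WT 1 alone with the iKO libraries. Log2 fold changes there were 1.05 for Serpine2, 1.01 for Serpina10, -1.16 for Adamts13, -0.98 for Tfpi2, -0.37 for Stab2 and -0.45 for Fgl2. With a library left out, the call of Serpine2 was lost for each library but iKO 3 (adjusted p 0.0501 to 0.167), as was that of Serpina10 (0.0514 to 0.120). That of Tfpi2 was lost for each but iKO 1 (0.0729 to 0.122), and that of Fgl2 for each but WT 1 (0.0896 to 0.195). Stab2 lost its call without WT 2, WT 3, iKO 2 or iKO 3 (0.0611 to 0.141), and Adamts13 without WT 2 (0.0512). Serpine2, Fgl2 and Stab2 also lost their calls on both FPKM scales and with an offset for length. Serpine2 and Fgl2 lost theirs in limma-voom too. Tfpi2 lost its call with RLE normalisation factors, and Serpina10 with a replicate block.

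**Figure D5:**
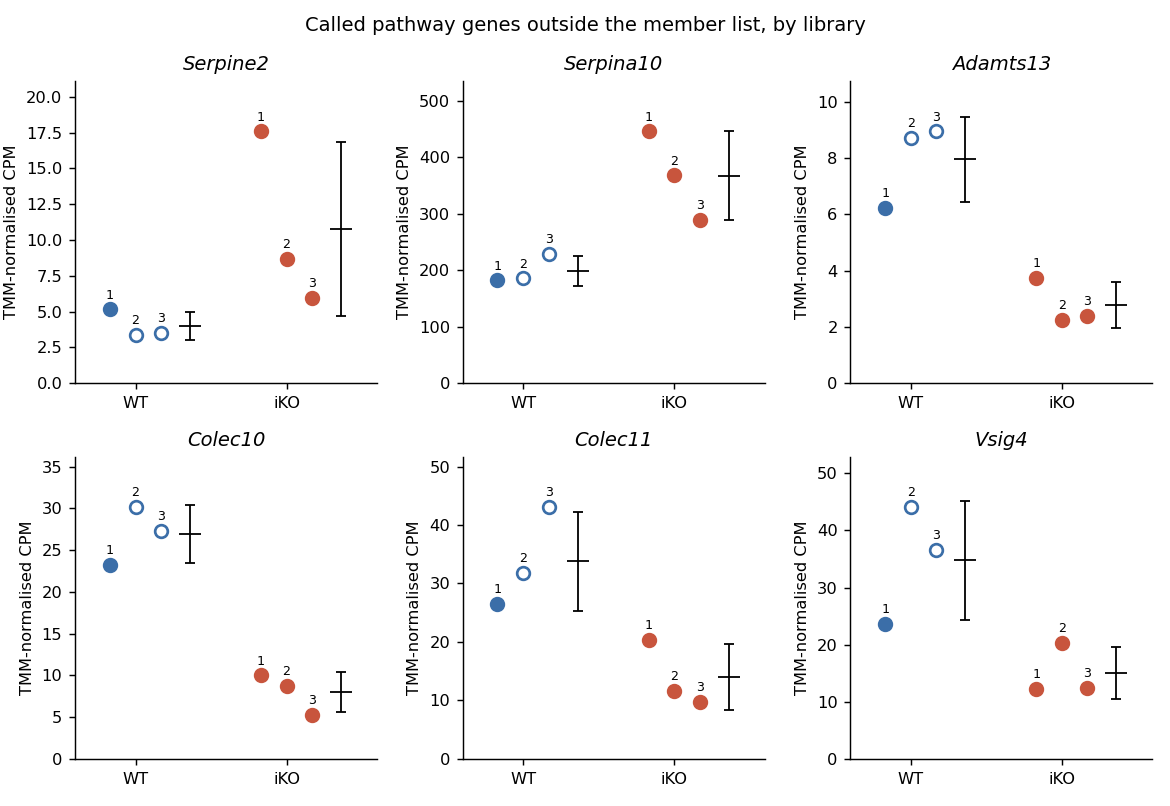
CPM (y axis, from 0) of pathway genes outside the 46 in each of the 3 WT and 3 iKO libraries, numbered by replicate; filled circles hold Y-linked counts, open circles none, and black bars are mean ± SD. Adamts13 and Colec10 lie lower in every iKO library than in any WT library.

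The vitamin K cycle and the secretion factors of clotting proteins, 9 genes, gave 0 calls by edgeR, DESeq2 and limma-voom, with 0 at an unadjusted p below 0.05. Of 17 regulators of liver transcription, 5 were called higher and 2 lower, with a median log2 fold change of 0.56. The 4 with the largest rises were Onecut1 (6.75 ± 2.21 to 30.1 ± 16.1 CPM, log2 fold change 2.15, adjusted p = 0.0375), Cebpd (2.04, adjusted p = 0.00513), Cebpb (82.9 ± 12.9 to 332 ± 104 CPM, 2.00, adjusted p = 0.00238) and Foxa3 (1.65, adjusted p = 0.00271). The remaining rise, named after its value was seen, was Hnf4a (507 ± 51.2 to 879 ± 158 CPM, 0.79, adjusted p = 0.0414). Il6st, the signalling subunit of the interleukin-6 receptor, fell by 0.97 and Nr5a2 by 0.60 on the log2 scale. With the Y-linked term 0 of the 17 were called, and Cebpb had an adjusted p of 0.0797. Of these, Cebpb, Cebpd and Foxa3 kept their calls with any 1 library left out; Hnf4a lost its call without any 1 of them (adjusted p 0.0554 to 0.148), Onecut1 without any but iKO 3 (up to 0.157), Nr5a2 without any but iKO 2 (0.0523 to 0.165), and Il6st without WT 2 (0.138), WT 3 (0.0602) or iKO 3 (0.0745).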

How the data were processed

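Livers of 3 WT and 3 iKO mice, grouped by the labels' genotype, were compared. The submitters' processing notes name build mm9 with RSEM 1.2.12, HISAT2 2.0.4 and Bowtie2 2.2.5. The authors deposited expected counts, FPKM and TPM per gene; 64.9% to 68.3% of expected counts are whole within 0.001. RSEM splits reads between similar genes: 10 of the 46 genes were not whole in any library and are less certain (F2, F8, F10, Serpinc1, Kng1, Klkb1, C4b, C6, Masp2 and Mbl1). The sources used here do not say whether strand was used.

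After rounding, expected counts went into edgeR 4.0.16 under R 4.3.3 with TMM factors, filterByExpr, the robust quasi-likelihood F test, Benjamini-Hochberg over 13160 genes, threshold 0.05. CPM are TMM-normalised; the SE is the log2 difference divided by the root of F. DESeq2 1.42.0 and limma 3.58.1 served as alternatives, and the fit was tested on simulated data. A library holds Y-linked reads where Ddx3y and Kdm5d exceed 10 counts together. At these depths livers vary more than counting error does, except near 1 CPM. The members, gene lists and tests were chosen with earlier results of these data known. Named genes are the called members, the 2 nearest the threshold, and up to 4 called genes per direction of each other list; the per-library values of F5, F13b, C3, Vtn and the terminal, vessel-wall and fibrinogen genes, and the naming of Hnf4a, were chosen after seeing values. Other members are given as means. Alternatives were other normalisation factors, a looser filter, both other tools, limma on log2 FPKM, a replicate block, both Y-linked fits, a length offset and leaving out each library. A further clotting gene was left out of its list and is not reported here.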

Additional observations from a re-analysis of the deposited data

How the results depend on the processing

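The count of the 46 genes called lower was 3; it was 5 on log2(FPKM + 1), 5 with a replicate block, 1 with a term for Y-linked reads, 1 in the libraries with Y-linked reads alone, and 1 to 6 with a library left out (6 without iKO 2). The count called higher was 0 in every setting except without WT 1, where it was 2 (range 0 to 2 with a library left out). Over all genes 2024 were called (962 higher, 1062 lower), 184 with the Y-linked term, 140 with WT 1 against the iKO libraries, and 491 to 1840 with a library left out (491 without WT 2, 908 without WT 3, 946 without iKO 3). On the FPKM scales the split was 421 higher and 931 lower with 1 added, and 427 and 926 with 0.1 added. The median of the 46 genes was 0.10, and -0.079 and -0.082 on log2(FPKM + 1) and log2(FPKM + 0.1); with 0.1 added the median of all genes was -0.20 in place of -0.02. With the Y-linked term the log2 fold changes of C6, C8a, C8b and C9 became -0.055, -0.34, -0.53 and -0.60, and in the libraries with Y-linked reads alone -0.042, -0.33, -0.52 and -0.59. With a library left out C8b ran from -0.044 to 0.92 and C9 from -0.002078 to 1.04, the lowest of both without WT 2. The cause was not tested.

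Same-numbered libraries correlated at 0.207, 0.218 and 0.0458 in their deviations, and WT 2 correlated best with iKO 3 (0.334), so the numbers were not taken to pair livers; the replicate block gave 1710 calls over all genes. Both Y-linked fits rest on WT 1 as the single WT library of its kind.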
